A study of Homo sapiens with 6 samples.

Results

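Aminoacyl-tRNA synthetases are the enzymes that join each amino acid to its transfer RNA. Here their transcripts were followed in BCPAP cells, cultured cells of a human papillary thyroid carcinoma line. The family of 37 genes was chosen by name, as 19 genes of cytosolic synthetases, 16 of mitochondrial synthetases and the 2 scaffold genes AIMP1 and AIMP2. Each gene was represented by the probe set selected on the highest mean over the 6 arrays. Of the 37 genes, 36 had a probe set paired with them alone, out of 18132 genes measured in all, and AIMP2 is not analysed here. Symbols ending in 2 were read as mitochondrial except AIMP2, whose product is cytosolic.

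The tested cells carried a lentiviral hairpin RNA (shCSF2) that targets CSF2, which encodes GM-CSF, a cytokine of myeloid cells, and the comparison cells a hairpin with no target (shCtrl), with 3 arrays of each, called biological replicates by the labels. All cells were of the same line, and puromycin selection began 48 hours after transduction and ran for 7 days. Total RNA was read on Affymetrix PrimeView arrays, and the deposited values are log2 expression summaries. The level of CSF2 is not analysed here, so no targeted transcript checks the labels, and the number of hairpins per gene is not given in the sources used here.

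Synthetases fall into class I and class II by the fold of their catalytic domain. In the cytosol several of them sit in a multisynthetase complex held together by the scaffold proteins AIMP1, AIMP2 and EEF1E1. The mitochondrion translates its own messages with a separate set of nuclear-encoded enzymes. When an amino acid runs short, uncharged tRNA activates the kinase GCN2, which leads to translation of the transcription factor ATF4. Many cytosolic synthetase genes are known targets of ATF4, together with genes of amino acid transport and synthesis.

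The 6 arrays had median log2 values of 5.77 to 5.79. Across probe sets, which are not independent of each other, arrays of 1 group correlated with r of at least 0.998, and arrays of different groups with r of at most 0.994. The labels do not say whether the replicates were separate transductions, so p-values measure the spread between these arrays. In such bulk RNA, fewer cells expressing a gene and less RNA per cell cannot be told apart. The thyroid factors PAX8 (mean log2 value 8.09 over the 6 arrays) and NKX2-1 (9.57) and the keratins KRT7, KRT8 and KRT18 had clear signal, whereas the thyroid function genes TG, TSHR and SLC5A5 and the epithelial genes KRT19 and CDH1 had mean values under 5. NKX2-1 (log2 fold change -0.42) and KRT8 (-0.26) were lower in shCSF2 cells. Of 14 measured markers of fibroblasts, leukocytes and endothelium, 0 passed the test between groups. The summed log2 values of the leukocyte and of the epithelial markers overlapped between groups. The 5 fibroblast markers had low mean values, 2.66 to 5.14. Their sums lay narrowly apart, at 20.50 to 21.07 in shCSF2 arrays and 21.11 to 21.87 in shCtrl arrays. LUM differed most among them (-0.50), with overlapping groups. Sums of the 6 thyroid markers, of which only NKX2-1 was called, lay at 36.5 to 36.7 in shCSF2 and 36.9 to 37.2 in shCtrl arrays. Sums of the 5 endothelial markers lay at 27.1 to 27.5 in shCSF2 and 27.6 to 28.0 in shCtrl arrays. The part of these shifts in the results below was not tested. The difference between the 3′ and 5′ control probe sets of GAPDH was 0.02 higher in shCSF2 arrays (exact two-sided permutation test p = 0.1, the smallest that 3 arrays against 3 can give), and that of ACTB was also 0.02 higher (p = 0.6).

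The cytosolic set was shifted upward in shCSF2 cells, with GARS1, WARS1, CARS1 and TARS1 in front and QARS1 and HARS1 going the other way. Of the 19 cytosolic synthetase genes, 13 were higher in shCSF2 cells, 2 were lower and 4 did not pass. Of the 16 mitochondrial ones, 6 were higher, 1 was lower and 9 did not pass. A gene is called higher or lower where its adjusted p is under 0.05 in limma's moderated test, with the Benjamini-Hochberg adjustment made across the 18132 genes. That rule called 32.7% of all genes, 16.7% higher and 16% lower. All 36 measured members lay above the median level of all genes, where a larger share was called. A fit of only the 9066 genes at or above that median called 5798 of them, a much larger share than the 32.7% over all genes. How many of the 5798 were higher was not counted. That fit had 13 higher and 2 lower cytosolic genes, and 8 higher and 1 lower mitochondrial gene. Counting both directions, the cytosolic set was called more often than all genes of that fit, and the mitochondrial set was not. The median log2 fold change, shCSF2 minus shCtrl, was 0.18 for the cytosolic and 0.10 for the mitochondrial set. It was -0.03 over all genes and 0.001 over the 9066 genes at or above the median level. The family was put forward with results of this comparison known, so these counts are a description, and the difference between the 2 sets was not tested. The 3 shCSF2 arrays lay wholly above or below the 3 shCtrl arrays for 15 cytosolic and 10 mitochondrial genes, where 46.7% of all genes had groups that did not overlap.

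**Figure D1:**
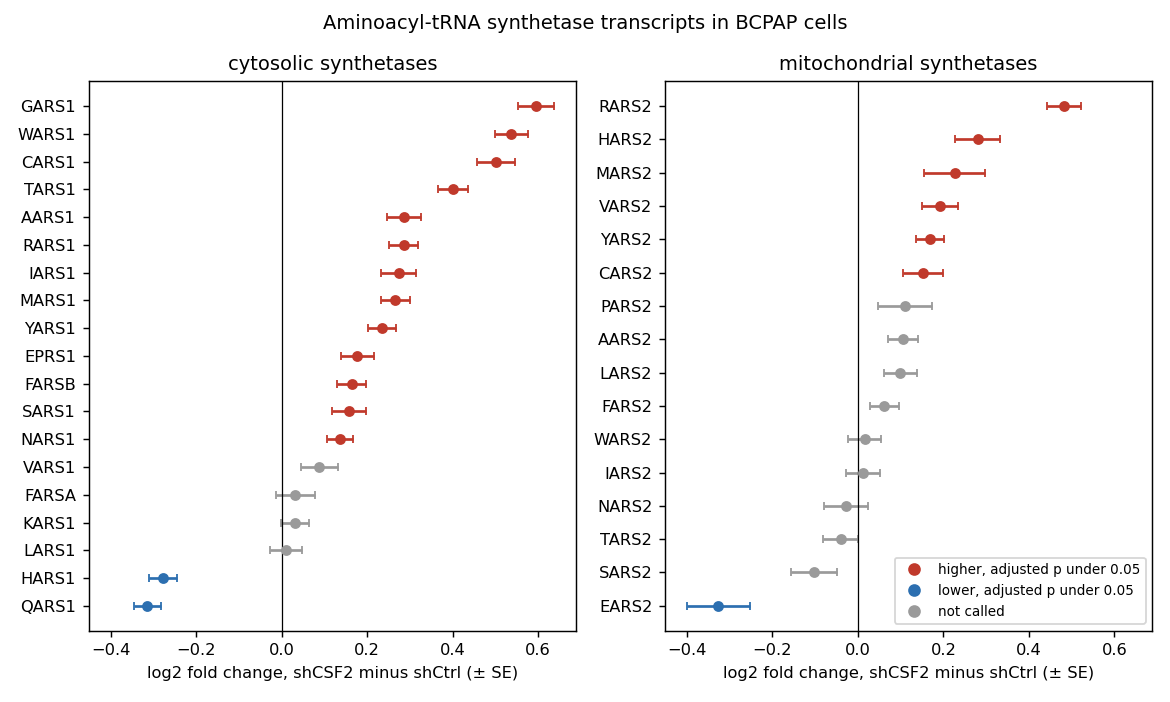
Log2 fold change, shCSF2 minus shCtrl, of 19 cytosolic (left) and 16 mitochondrial (right) synthetase genes, with the moderated standard error (n = 3 arrays per group). Colour gives the call at an adjusted p under 0.05. In the cytosolic panel 13 genes lie to the right as called higher and QARS1 and HARS1 to the left as called lower, and in the mitochondrial panel RARS2 (0.48) stands farthest to the right.

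Among cytosolic enzymes outside the multisynthetase complex, GARS1 changed most. GARS1 charges glycine, and its gene gives both the cytosolic and the mitochondrial enzyme. It read 10.99, 11.03 and 10.94 in shCSF2 arrays, against 10.37, 10.36 and 10.45 in shCtrl arrays (log2 values). The groups did not overlap, and the fold change was 1.51 (log2 0.59 ± 0.04, SE, limma adjusted p = 0.000125). WARS1, the tryptophan enzyme, which is also known as an interferon-induced gene, read 9.58, 9.62 and 9.60 in shCSF2 arrays, against 9.05, 9.03 and 9.12 in shCtrl arrays. Its fold change was 1.45 (log2 0.54 ± 0.04, adjusted p = 0.000120), again without overlap.

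CARS1, which charges cysteine, read 10.10, 10.16 and 10.08 in shCSF2 arrays, against 9.55, 9.63 and 9.66 in shCtrl arrays. All 3 shCSF2 values were above all shCtrl values, and the change was 1.42-fold (log2 0.50 ± 0.04, adjusted p = 0.000261). TARS1, the threonine enzyme, read 11.80, 11.79 and 11.75 in shCSF2 arrays, against 11.35, 11.41 and 11.38 in shCtrl arrays. It was 1.32-fold higher without overlap (log2 0.40 ± 0.03, adjusted p = 0.000248). The other 2 probe sets of TARS1 were called higher at 0.18 and 0.35, and averaging all 3 gave 0.31.

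Smaller rises followed. AARS1, the alanine enzyme, rose by 0.29 ± 0.04 on the log2 scale and YARS1, the tyrosine enzyme, by 0.23 ± 0.03. FARSB, the beta subunit of the phenylalanine enzyme, rose by 0.16 ± 0.03, while its alpha subunit partner FARSA did not pass (0.03 ± 0.05, adjusted p = 0.647). FARSB averaged 9.42 ± 0.01 in shCSF2 and 9.26 ± 0.03 in shCtrl arrays (SD, n = 3), and FARSA 8.90 ± 0.06 in shCSF2 and 8.86 ± 0.05 in shCtrl arrays. The FARSB call was lost when its 5 probe sets were averaged (log2 0.10, adjusted p = 0.0515) and with the most variable of them (0.17, adjusted p = 0.0687). SARS1, the serine enzyme, was called higher at 0.16 ± 0.04, but lost its call without shCSF2 replicate 2 (0.15), without shCSF2 replicate 3 (0.16) and without shCtrl replicate 1 (0.13). NARS1, the asparagine enzyme, had the smallest called rise, 0.14 ± 0.03, on a spread of 0.01 within each group (SD, n = 3). VARS1, the valine enzyme, which binds elongation factor 1, did not pass (0.09 ± 0.04, adjusted p = 0.174).

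Of the 12 measured cytosolic genes outside the complex, HARS1 was the 1 called lower. It charges histidine. Its values were 9.55, 9.54 and 9.58 in shCSF2 arrays, against 9.84, 9.82 and 9.84 in shCtrl arrays, with a wide gap beside the scatter within each group. The fall was 1.21-fold (log2 -0.28 ± 0.03, adjusted p = 0.000834).

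**Figure D2:**
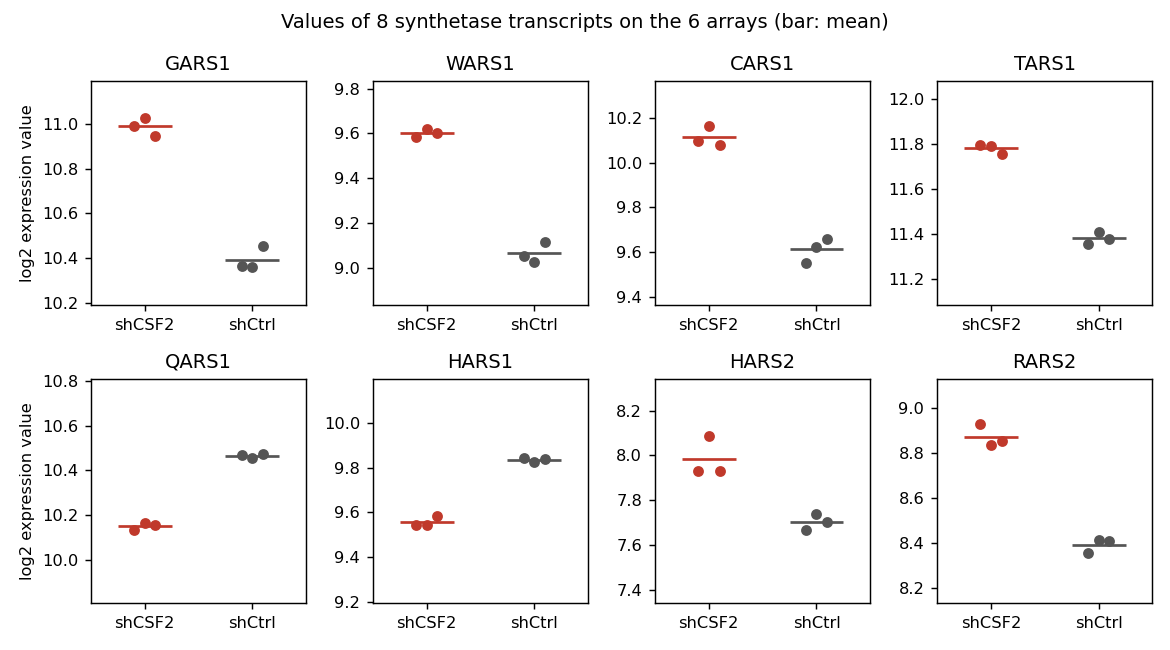
Log2 expression values of 8 synthetase genes on the 3 shCSF2 arrays (left in each panel) and the 3 shCtrl arrays (right), with the group mean as a bar. Each panel spans 1 log2 unit, and in every panel the groups are apart, with QARS1 and HARS1 lower in shCSF2 cells and the other 6 genes higher.

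Of the 7 measured synthetase genes of the multisynthetase complex, 4 were higher, 1 was lower and 2 did not pass, with a median of 0.18. Outside the complex 9 of 12 were higher and 1 lower, with a median of 0.20. The arginine enzyme gene RARS1 (log2 0.29 ± 0.03), the isoleucine enzyme gene IARS1 (0.27 ± 0.04), the methionine enzyme gene MARS1 (0.27 ± 0.03) and EPRS1 (0.18 ± 0.04), which encodes a fused enzyme for glutamate and proline, rose. For RARS1 the values were 11.23, 11.26 and 11.23 in shCSF2 arrays, against 10.95, 10.93 and 10.98 in shCtrl arrays. For MARS1 they were 10.33, 10.34 and 10.33 in shCSF2 arrays, against 10.04, 10.07 and 10.09 in shCtrl arrays. In both genes every shCSF2 array was above every shCtrl array. By its most variable probe set, which was dim, MARS1 did not rise (-0.06, adjusted p = 0.704).

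QARS1, which charges glutamine, fell most among the cytosolic genes. It read 10.13, 10.17 and 10.16 in shCSF2 arrays, against 10.47, 10.46 and 10.47 in shCtrl arrays. The groups were clearly apart, with a 1.24-fold fall (log2 -0.31 ± 0.03, adjusted p = 0.000461). LARS1, the leucine enzyme, and KARS1, the lysine enzyme made for both cytosol and mitochondrion from one gene, did not pass, at 0.01 ± 0.04 (adjusted p = 0.860) and 0.03 ± 0.03 (adjusted p = 0.526). Both had overlapping groups.

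The scaffold gene AIMP1 did not pass by its brightest probe set, where it read 9.62, 9.69 and 9.65 in shCSF2 arrays, against 9.69, 9.71 and 9.70 in shCtrl arrays (log2 -0.05 ± 0.03, adjusted p = 0.332). All 5 of its probe sets pointed down, and 2 of the dimmer ones were called lower. With all of them averaged AIMP1 had a log2 fold change of -0.19 and an adjusted p of 0.00387.

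By enzyme class the cytosolic counts were the same, with 6 of 9 class I and 6 of 9 class II genes higher and 1 of each lower, EPRS1 holding one enzyme of each class. In the mitochondrial set 5 of 9 class I and 1 of 7 class II genes were higher. The difference between classes was not tested.

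Among the mitochondrial enzymes RARS2, which charges mitochondrial arginine tRNA, changed most. It read 8.93, 8.84 and 8.85 in shCSF2 arrays, against 8.36, 8.41 and 8.41 in shCtrl arrays. There was no overlap, and the rise was 1.40-fold (log2 0.48 ± 0.04, adjusted p = 0.000213). HARS2, the mitochondrial histidine enzyme, read 7.93, 8.09 and 7.93 in shCSF2 arrays, against 7.67, 7.74 and 7.70 in shCtrl arrays, a rise of 1.21-fold (log2 0.28 ± 0.05, adjusted p = 0.00633). Its second probe set gave 0.29.

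VARS2 (valine) rose by 0.19 ± 0.04 and YARS2 (tyrosine) by 0.17 ± 0.03. MARS2 (methionine, 0.23 ± 0.07, adjusted p = 0.0480) and CARS2 (cysteine, 0.15 ± 0.05, adjusted p = 0.0470) were called higher by a narrow margin. MARS2 averaged 7.03 ± 0.08 in shCSF2 and 6.81 ± 0.12 in shCtrl arrays (SD, n = 3), and lost its call whichever of the 6 arrays was left out (0.16 to 0.26). In a fit over all probe sets its other 2 probe sets were called higher, at 0.30 and 0.26, but its brightest was not (adjusted p = 0.0535). CARS2 averaged 7.30 ± 0.04 in shCSF2 and 7.15 ± 0.07 in shCtrl arrays and lost its call in 5 of those 6 fits (0.11 to 0.18), all but the one without shCtrl replicate 3.

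EARS2, the mitochondrial glutamate enzyme, has no settled direction. Its brightest probe set read 6.22, 6.43 and 6.41 in shCSF2 arrays, against 6.73, 6.57 and 6.74 in shCtrl arrays, a fall of 0.33 ± 0.07 on the log2 scale (adjusted p = 0.0138). Of its other 3 probe sets, 2 were called higher (0.16 and 0.21) and 1 did not pass (0.05). With the 4 averaged the log2 fold change was 0.02 (adjusted p = 0.739), and without shCtrl replicate 3 the call was lost (-0.29, adjusted p = 0.0509).

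The remaining mitochondrial genes did not pass. PARS2 (proline, 0.11), AARS2 (alanine, 0.10), LARS2 (leucine, 0.10) and FARS2 (phenylalanine, 0.06) had positive log2 fold changes, and for AARS2, LARS2 and FARS2 the shCSF2 arrays lay above the shCtrl arrays. AARS2 and LARS2 missed the threshold in this fit (adjusted p = 0.0603 and 0.0934) and passed it with genes of low mean value left out (0.0263 and 0.0459 at a mean log2 value of at least 5). WARS2 (tryptophan, 0.02) and IARS2 (isoleucine, 0.01) were near 0. NARS2 (asparagine, -0.03), TARS2 (threonine, -0.04) and SARS2 (serine, -0.10) had negative values with overlapping groups. By other probe sets the signs of WARS2, TARS2 and PARS2 (-0.004) turned, without passing. Mean log2 values ran from 6.38 (TARS2) to 9.25 (IARS2) in the mitochondrial set and from 8.88 (VARS1) to 11.6 (TARS1) in the cytosolic set. Signals of different probe sets do not measure relative abundance.

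**Figure D3:**
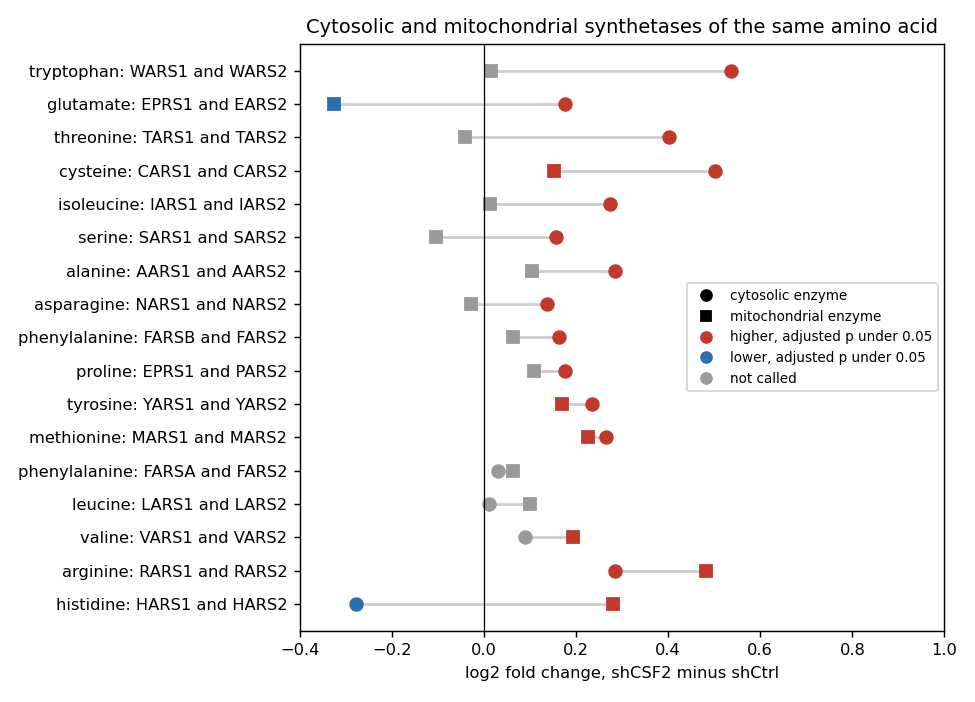
Log2 fold change, shCSF2 minus shCtrl, of cytosolic (circles) and mitochondrial (squares) synthetase genes for the same amino acid, ordered by the difference between them. Tryptophan is at the top with a cytosolic value of 0.54 and a mitochondrial value of 0.02, and histidine is at the bottom, where HARS1 (-0.28) and HARS2 (0.28) lie on opposite sides of 0.

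Setting the enzymes of one amino acid side by side gave 17 pairings over 16 amino acids. In 8 pairings the cytosolic gene was called higher and its mitochondrial counterpart was not called. In 4 both were higher, namely the enzymes of cysteine, methionine, arginine and tyrosine. The cytosolic value was the more positive in 12 pairings and the mitochondrial value in 5. These pairings are not separate, since EPRS1 and FARS2 each enter 2 of them. The 12 include EPRS1 and EARS2, where the EARS2 direction depends on the probe set. Differences for methionine (0.04 ± 0.09, SE), proline (0.07 ± 0.07) and FARSA with FARS2 (-0.03 ± 0.06) were no larger than their SE. The difference between the log2 fold changes, cytosolic minus mitochondrial, was 0.52 ± 0.05 for tryptophan (SE over arrays, n = 3 per group), 0.44 ± 0.03 for threonine and 0.35 ± 0.03 for cysteine. It was negative for arginine, where the mitochondrial gene rose more (-0.20 ± 0.04), and for valine (-0.10 ± 0.02).

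Opposite calls were made in 2 pairings. One is EPRS1 and EARS2, where the EARS2 direction depends on the probe set. The other is HARS1 and HARS2, where all 3 probe sets of HARS1 were called lower (-0.34 to -0.28) and both of HARS2 higher (0.28 to 0.29). The difference between the HARS1 and HARS2 changes was -0.56 ± 0.07. In the RefSeq annotation these genes lie head to head on chromosome 5, transcribed away from each other from starts that have 84 bases between them. The interval between the starts is shown because the genes on its sides moved in opposite directions. It lies at chr5:140691371-140691454 in GRCh38.p14 and is printed from the plus strand, with HARS1 beginning to the left of it and HARS2 to the right.

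HARS1 to HARS2 interval: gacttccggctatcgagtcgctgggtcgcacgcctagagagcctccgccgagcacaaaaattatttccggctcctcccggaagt

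The same search, chosen after the histidine values were seen, looked for a gene starting head to head within 1000 bases of any member. RARS2 has 147 bases between its start and that of ORC3, a subunit of the origin recognition complex, and ORC3 fell (log2 -0.19 ± 0.03, adjusted p = 0.00554) while RARS2 rose. FARS2, which did not pass, faces LYRM4, a gene of iron-sulphur cluster assembly, across 56 bases, and LYRM4 fell (-0.30 ± 0.04, adjusted p = 0.00126). WDR25, which faces WARS1 across 157 bases, did not pass (0.04 ± 0.05, adjusted p = 0.569). Of the other measured partners, TBCK (0.16), which faces AIMP1, was higher, and UBFD1 (facing EARS2), TERF2IP (facing KARS1) and MRPS12 (facing SARS2) did not pass. TARS1-DT, which faces TARS1 across 61 bases, and LOC124907985, which faces FARSB across 340 bases, were not measured. Whether these starts share a promoter was not measured.

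Since members were called in one direction more often than in the other, their promoters were searched for the letters TGATGNAA, the form of the element that ATF4 binds with a C/EBP partner, on both strands. RefSeq promoters of GRCh38.p14, from 250 bases before to 50 after each start, were at hand for 31 of the 36 measured genes, the others being LARS1, VARS1, YARS1, AARS2 and VARS2. Of 16 cytosolic genes, 7 held the letters in at least 1 promoter, against 1 of 14 mitochondrial genes and 4.46% of 27305 genes in the table. Per promoter, 3.62% of 35116 held them. The narrower form TGATGCAA, contained in the first, was found in 6 of 16 cytosolic genes, 0 of 14 mitochondrial genes and 1.08% of all genes. Of the 16 cytosolic genes with a promoter 12 were called higher, and these held all 7 with a match. The search was prompted by these calls, and only 2 of the 16 were called lower and 2 not called. The split by call therefore cannot show a link between match and call. The share with a match among all genes called higher was not counted. QARS1 and HARS1, called lower, and FARSA and KARS1, not called, had no match in these windows. WARS1, RARS1, RARS2 and HARS2 were among the genes called higher that had no match either. A match is a run of letters and was not measured as a bound site.

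The stretches below are shown because they hold those letters. Each has 30 bases with the match in capitals, written 5′ to 3′ on the strand of the gene, with its log2 fold change in the text above. The match begins 2 bases after a start of TARS1 and 2 before a start of CARS1, genes with 2 annotated starts each. It begins 4 bases before the annotated start in MARS1, 13 before in IARS1 and 14 after in NARS1. In AARS1 it begins 187 bases before, in GARS1 33 before the downstream of its 2 starts, and in YARS2 197 before. For TARS1, CARS1 and GARS1 the window of the other start held no match.
TARS1 (chr5:33440956-33440985, plus strand): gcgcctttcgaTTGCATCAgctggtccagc
CARS1 (chr11:3057407-3057436, minus strand): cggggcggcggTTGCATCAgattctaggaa
MARS1 (chr12:57488053-57488082, plus strand): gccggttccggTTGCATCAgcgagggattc
IARS1 (chr9:92293692-92293721, minus strand): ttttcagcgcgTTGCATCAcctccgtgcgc
AARS1 (chr16:70289675-70289704, minus strand): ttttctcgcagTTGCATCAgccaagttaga
NARS1 (chr18:57621804-57621833, minus strand): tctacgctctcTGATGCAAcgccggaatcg
GARS1 (chr7:30594834-30594863, plus strand): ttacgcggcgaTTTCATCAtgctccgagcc
YARS2 (chr12:32756076-32756105, minus strand): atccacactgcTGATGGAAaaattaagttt

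In 6 of the 8 the 8 letters are TTGCATCA or their reverse complement TGATGCAA, and the bases around them differ from gene to gene. GARS1 and YARS2 have another base at the free position.

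**Figure D4:**
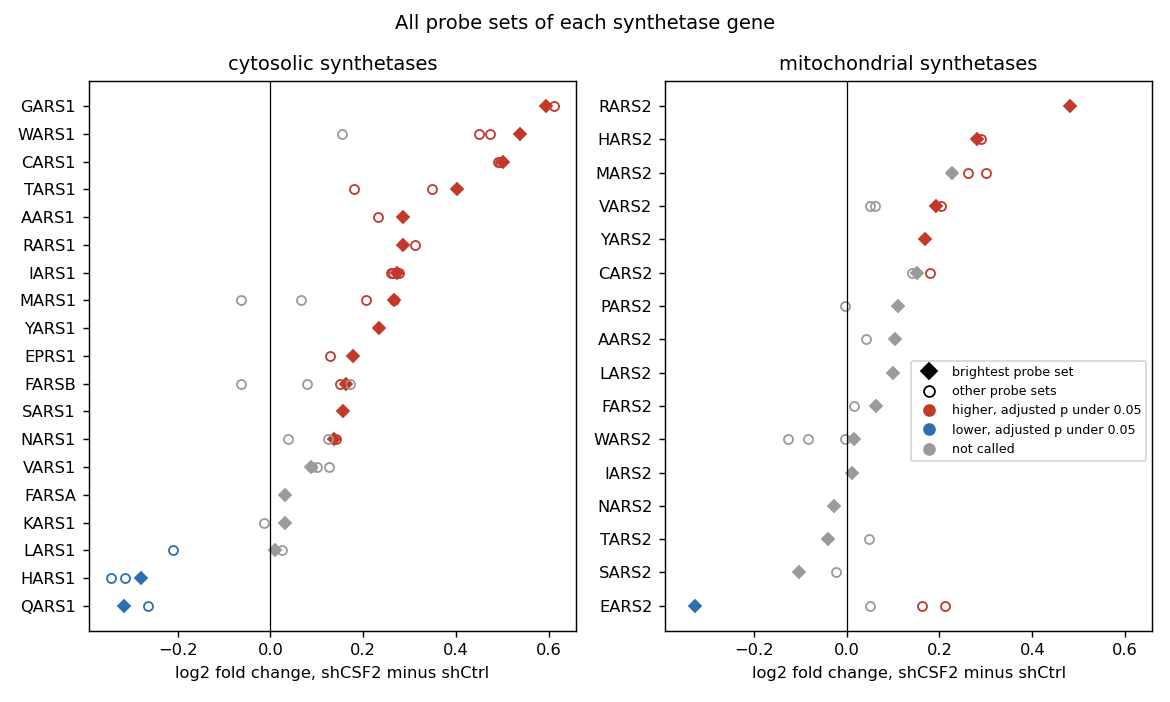
Log2 fold change, shCSF2 minus shCtrl, of every probe set of the cytosolic (left) and mitochondrial (right) synthetase genes, with the brightest probe set as a filled diamond and the others as open circles. Calls are from the fit over all 44988 probe sets, and EARS2 at the bottom right has its brightest probe set at -0.33 and the other 3 between 0.05 and 0.21.

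The other probe sets of the same genes were not used to choose values, although they were read on the same arrays. In a fit over all 44988 probe sets with 1 gene, where 29.7% were called, 17 of 34 other cytosolic probe sets were higher and 4 lower, with a median of 0.15. Of 19 other mitochondrial probe sets 7 were higher and 0 lower, with a median of 0.05. Among the 13 cytosolic genes that were called in this fit and had several probe sets, 9 had the same call in all of them. Among the 3 such mitochondrial genes 1 did, HARS2, while VARS2 had 2 of 4 probe sets not called and EARS2 had opposite calls. MARS2 and CARS2 are not among these 3, since their brightest probe sets were not called in this fit (adjusted p = 0.0535 and 0.0580). GARS1 (0.59 and 0.61), CARS1 (0.49 to 0.50), IARS1 (0.26 to 0.28), HARS1 and QARS1 (-0.31 and -0.26) were among the 9 cytosolic genes with the same call throughout. For LARS1, 1 of 3 probe sets was called lower (-0.21) while the brighter 2 were near 0. SARS1, YARS1, FARSA, RARS2, YARS2, LARS2, IARS2 and NARS2 had 1 probe set each.

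The synthetases were then set beside other genes of amino acid supply and of translation, in lists put together with earlier results of these data known. Of 13 amino acid transporter genes, 9 were higher and 1 lower, with a median of 0.28. The cystine transporter gene SLC7A11 (1.44 ± 0.04), SLC3A2 (1.01 ± 0.05), the heavy chain it pairs with, and the leucine transporter gene SLC7A5 (0.85 ± 0.04) rose most, and the arginine and lysine transporter gene SLC7A2 fell (-0.71 ± 0.04). Of 12 measured amino acid synthesis genes, 6 were higher and 0 lower. They were led by ASNS, which makes asparagine (0.75 ± 0.04), CTH, which makes cysteine (0.56 ± 0.05), PSPH (0.55 ± 0.06) and PSAT1 (0.41 ± 0.05), both of serine synthesis. A list of 18 genes joined those that sense amino acid shortage or answer to it with subunit genes of the general initiation factors eIF2 and eIF2B. Of the 18, 12 were higher and 0 lower, with a median of 0.20. Over all genes 16.7% were higher and 16% lower. The 12 include the subunit genes EIF2B5 (0.27), EIF2B1 (0.19), EIF2B4 (0.13) and EIF2S1 (0.12), and the other subunit genes did not pass. SESN2, an inhibitor of mTORC1 signalling (1.10 ± 0.05), TRIB3, a feedback inhibitor of ATF4 (0.96 ± 0.04), CHAC1, which degrades glutathione (0.80 ± 0.07), and DDIT3, the transcription factor CHOP (0.65 ± 0.05), had the largest rises. The GCN2 kinase gene EIF2AK4 (0.21 ± 0.05) and ATF4 itself (0.39 ± 0.03) were also higher, both singled out with the values known.

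Genes that make, process or export tRNA were called in both directions, with 9 of 18 higher and 3 lower. The tRNA 3′ processing gene ELAC1 (0.49 ± 0.12), which was dim, POP1, a subunit of RNase P (0.35 ± 0.05), and the tRNA exporter gene XPOT (0.34 ± 0.04) were higher, and MAF1, a repressor of RNA polymerase III, was lower (-0.24 ± 0.04). Of 4 measured editing and recycling genes, ANKRD16 (0.24), which aids AARS1 editing, and DTD1 (0.11), which removes D-amino acids from tRNA, were higher and PTRHD1 (-0.20) was lower. Of the 4 genes that make glutaminyl-tRNA and formylmethionyl-tRNA in mitochondria limma called 0, and 1 had an unadjusted p under 0.05. This was GATB (-0.10 ± 0.03, adjusted p = 0.0623), and GATC, of the same amidotransferase, had 0.02 ± 0.03 (adjusted p = 0.748). TARS3, another threonine enzyme gene, did not pass (0.03 ± 0.08, adjusted p = 0.789).

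The genes of the translation machinery are given beside the 32.7% called over all genes. Of 64 cytosolic ribosomal protein genes 1 was higher and 3 lower, with a median of -0.03. The higher one was RPL27A (0.78 ± 0.08), whose probe set had a mean log2 value of 6.73, below those of all the others in the list, and RPL35A (-0.23), RPL31 (-0.12) and RPS27 (-0.11) were lower. Most of the 64 had mean log2 values above that of TARS1 (11.6), the brightest synthetase gene, up to 13.7. Whether signals this high limit the changes that the array can show was not tested. Of 8 cytosolic elongation factor genes 0 were higher and 2 lower, EEF2K, the kinase that inhibits elongation factor 2 (-0.23 ± 0.05), and EEF1D (-0.18 ± 0.04). In mitochondria 25 of 74 ribosomal protein genes were higher and 10 lower, with a median of 0.07. MRPL1 (0.56 ± 0.05) and MRPL15 (0.49 ± 0.04) rose most, and MRPL33 (-0.69 ± 0.05) and MRPL43 (-0.44 ± 0.04) fell most. Of 8 mitochondrial translation factor genes 5 were higher, among them the release factor gene MTRF1L (0.27), the initiation factor gene MTIF2 (0.27) and the elongation factor gene TSFM (0.24), while the initiation factor gene MTIF3 was lower (-0.24). The difference between lists was not tested.

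**Figure D5:**
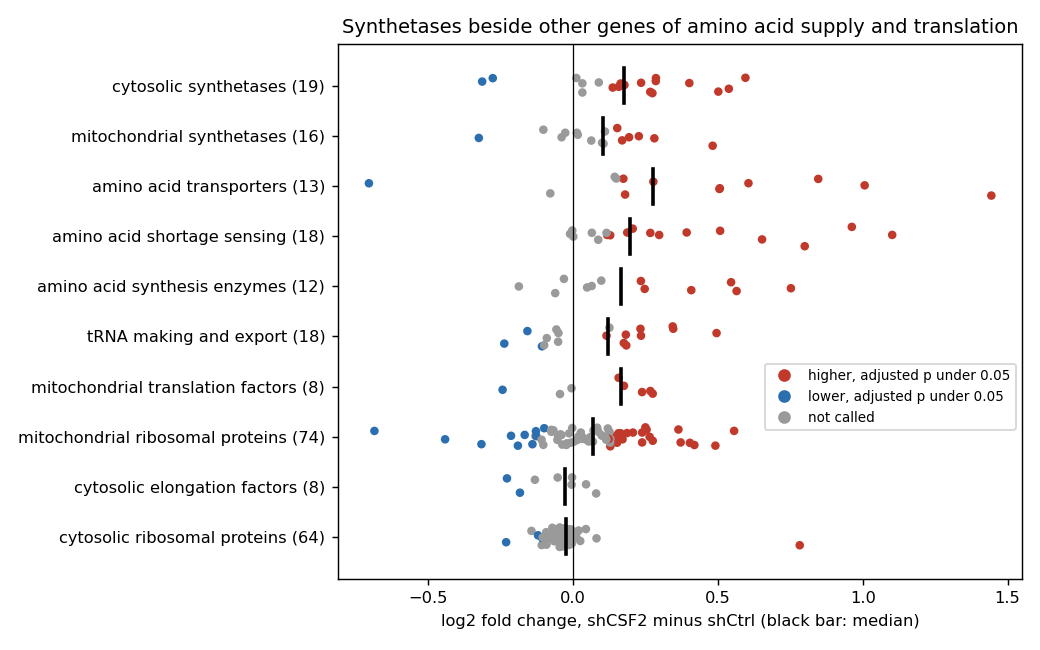
Log2 fold change, shCSF2 minus shCtrl, of each gene in the synthetase sets and 8 other lists, with the median as a black bar and the number of genes in brackets. Points are coloured by call at an adjusted p under 0.05. The amino acid transporters reach 1.44 (SLC7A11), and RPL27A (0.78) stands apart from the other cytosolic ribosomal protein genes.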

How the data were processed

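The values deposited by the authors are on the log2 scale, with 1 summary for each probe set of an array, made from 200 ng of total RNA per the labels' protocols. RMA, oligo and limma are named in the submitters' processing notes, with neither version nor role. Of 49395 probe sets, 102 were controls, 44988 were paired with 1 gene by the platform annotation, 1832 with several, and 2473 had no entry. Symbols were checked through gene identifiers against RefSeq (GRCh38.p14), and 0 changed. The brightest probe set stood for each of 18132 genes.

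The tests used limma 3.58.1 (lmFit, then eBayes) under R 4.3.3 on all genes, without block, trend or filter, after the fit was tested on simulated data. Moderated standard errors are given. Promoters are from RefSeq. Figures were drawn with matplotlib 3.10.9. The number of arrays limits precision. All members are named. From each other list, the text names up to 4 called genes with the largest change, or 2 where none was called. Beyond this rule it names ATF4, EIF2AK4 and the called eIF2 and eIF2B subunit genes. In the ribosomal lists paralogues marked L or Y were left out. Members and lists were chosen with earlier results of these data known.

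Same-numbered arrays of the groups deviated from their group means with correlations of 0.03, 0.05 and 0.03, so the numbers were not taken to pair them. Alternatives were filters on dim genes, other normalizations, variance models, array weights, other probe set rules, a replicate block and leaving out each array.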

Additional observations from a re-analysis of the deposited data

How the results depend on the processing

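With the replicate block the counts were 13 higher and 2 lower cytosolic genes and 6 higher and 1 lower mitochondrial gene, as without it, and 5469 genes in all were called, against 5930. The block changed no call of a member, and 4 of the 6 arrays correlated best with their own number. Median centring moved the medians to 0.20 (cytosolic) and 0.13 (mitochondrial), as centring shifts all genes alike. Averaging all probe sets of a gene gave medians of 0.15 and 0.063 and 0 lower mitochondrial genes, and the most variable probe set gave a mitochondrial median of 0.073. Leaving out 1 array gave 12 to 13 higher and 2 lower cytosolic genes (median 0.17 to 0.19), and 4 to 5 higher and 0 to 1 lower mitochondrial genes (median 0.082 to 0.10), with 4918 to 5142 genes called in all. The lowest mitochondrial values, 0 lower and 0.082, came without shCtrl replicate 3. Signs turned for LARS1 (-0.21) and MARS1 (-0.064) with the most variable probe set and for EARS2 (0.025) with all probe sets averaged, and the cause was not tested. FARSA, KARS1, IARS2, NARS2, TARS2 and WARS2, which were called in none of these fits, also changed sign in at least 1 of them, as did LARS1 in others (-0.058 with all probe sets averaged). Both filters on dim genes and median centring gave 8 higher mitochondrial genes, AARS2 and LARS2 being added, and the most variable probe set gave 11 higher and 3 lower cytosolic genes. Of 15 called cytosolic genes 12 kept their call in all 16 alternatives, and of 7 mitochondrial genes 4 did (HARS2, RARS2, VARS2 and YARS2). Counting AIMP2 as mitochondrial was not run, since it had no probe set of its own here. Without GARS1 and KARS1 the cytosolic counts were 12 higher and 2 lower. All 36 measured members passed both filters on dim genes, and signal over background was not used here.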
